A study of Mus musculus with 6 samples.

Results

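The nuclear-encoded genes of the mitochondrial respiratory chain were followed across 6 conditions of the mouse macrophage line RAW264.7. Members were taken by gene name, as the rows whose symbol begins with Nduf followed by a, b, c, s or v and a digit, with Uqcr, with Cox followed by a digit from 4 to 8, or with Atp5. Of 24062 genes in the count tables, 80 matched, and 75 of them had 10 or more counts in at least 1 library and were described further. Over all genes, 12079 passed this limit. The members described were therefore selected on 1 measured value, their highest count. Complex I contributed 37 genes, complex III 8, complex IV 13 of 18 and complex V 17. Just inside the limit, Ndufa4l2 had 16, 7, 4, 14, 2 and 12 counts, here and elsewhere in the order M0, M1, M2, RM0, RM1, RM2 (written as from M0 to RM2), and Cox7a1 had 26, 23, 22, 21, 29 and 13. Just outside it, Cox4i2 had 0, 1, 2, 3, 0 and 1 counts, and Cox6b2, Cox7b2, Cox8b and Cox8c had 0 in all 6 libraries, which allows up to 3 counts in each.

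M0 cells were left unpolarized. For the M1 state, cells were treated over 24 h with IFN-γ (20 ng/mL) together with LPS (100 ng/mL). For M2 the treatment was IL-4 (20 ng/mL), again over 24 h. RM0, RM1 and RM2 cells had in addition received 10 Gy from a caesium gamma source and were then kept for another 24 h, and how long the non-irradiated cells were kept is not given in the sources used here. Each condition has 1 library, made from RNA pooled over 5 wells, so a difference between 2 libraries has no replicate check and carries no p-value. All 6 libraries come from the same cell line, although the labels also name bone marrow as the tissue.

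The respiratory chain passes electrons from NADH and succinate to oxygen in the inner mitochondrial membrane and pumps protons as it does so. Complex I (NADH dehydrogenase) and complex III (ubiquinol-cytochrome c reductase) carry the electrons to cytochrome c, complex IV (cytochrome c oxidase) hands them to oxygen, and complex V (ATP synthase) lets the protons flow back to make ATP. Macrophages activated with LPS and IFN-γ are known to shift energy production towards glycolysis, while IL-4 activation is known for its reliance on mitochondrial respiration. Complexes I, III, IV and V each also contain subunits encoded in mitochondrial DNA, and those 13 genes were not analysed here. By name the rule also takes a few genes that are not subunits or that belong elsewhere. Atp5s and Atp5sl are not subunits of the ATP synthase, Cox7a2l helps to join complexes III and IV into supercomplexes, and Ndufa4 is now counted with complex IV. They were kept where the name puts them.

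Promoter windows are printed for the 4 genes with the largest M1 difference in their complexes and for Atp5g1, the only member that passed the test as lower in M1. Each window runs from 250 bases before the RefSeq start of transcription to 50 bases after it in build GRCm38.p6, 5′ to 3′ on the gene's strand, and comes from RefSeq. Capitals mark matches to any of 3 short motifs of factors known at respiratory chain genes, searched on both strands, namely the NRF1 core TGCGCA, the ETS motif CCGGAAG or CTTCCGG bound by GABP, and the YY1 motif AAGATGGC or GCCATCTT.
Ndufs4 promoter (chr13:114388045-114388344, minus strand): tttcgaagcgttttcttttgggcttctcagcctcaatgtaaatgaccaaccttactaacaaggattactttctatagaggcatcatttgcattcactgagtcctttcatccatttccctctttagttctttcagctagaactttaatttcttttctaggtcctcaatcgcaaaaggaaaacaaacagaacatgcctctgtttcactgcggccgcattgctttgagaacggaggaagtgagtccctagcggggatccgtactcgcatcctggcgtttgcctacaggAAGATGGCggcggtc
Uqcrh promoter (chr4:116075021-116075320, minus strand): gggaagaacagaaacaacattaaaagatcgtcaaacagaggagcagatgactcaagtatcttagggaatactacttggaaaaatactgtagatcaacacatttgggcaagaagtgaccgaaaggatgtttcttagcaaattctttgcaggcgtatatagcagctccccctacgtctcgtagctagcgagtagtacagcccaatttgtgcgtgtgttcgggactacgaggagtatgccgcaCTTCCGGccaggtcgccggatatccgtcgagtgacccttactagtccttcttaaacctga
Cox7a2l promoter (chr17:83514284-83514583, minus strand): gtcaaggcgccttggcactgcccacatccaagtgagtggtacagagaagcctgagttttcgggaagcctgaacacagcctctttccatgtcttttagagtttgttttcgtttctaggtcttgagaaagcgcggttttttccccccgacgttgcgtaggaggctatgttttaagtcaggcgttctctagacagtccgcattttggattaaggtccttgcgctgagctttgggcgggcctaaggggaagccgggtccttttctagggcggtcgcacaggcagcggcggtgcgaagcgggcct
Atp5e promoter (chr2:174464052-174464351, minus strand): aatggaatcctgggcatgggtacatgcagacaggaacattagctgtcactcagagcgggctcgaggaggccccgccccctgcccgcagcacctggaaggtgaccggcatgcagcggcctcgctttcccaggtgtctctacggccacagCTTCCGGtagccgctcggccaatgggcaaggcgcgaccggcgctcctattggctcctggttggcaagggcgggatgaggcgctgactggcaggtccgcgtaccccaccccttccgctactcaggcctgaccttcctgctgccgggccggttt
Atp5g1 promoter (chr11:96075582-96075881, minus strand): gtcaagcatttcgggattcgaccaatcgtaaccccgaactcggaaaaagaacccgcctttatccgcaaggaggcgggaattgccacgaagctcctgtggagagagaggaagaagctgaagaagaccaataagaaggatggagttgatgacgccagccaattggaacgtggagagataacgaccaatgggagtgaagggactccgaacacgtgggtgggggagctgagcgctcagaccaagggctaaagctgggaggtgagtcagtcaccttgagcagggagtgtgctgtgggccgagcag

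Ndufs4 held the YY1 motif from 36 bases after its start, Uqcrh an ETS motif 10 bases before its start, and Atp5e an ETS motif 102 bases before its start. The windows of Cox7a2l and Atp5g1 held none of the 3. Of 80 members, 66 were matched to a window, 6 of them to more than 1, giving 72 windows. The NRF1 core was present in 17 of these (23.6%), against 7.76% of all 32851 promoter windows of the same length. The ETS motif was present in 14 (19.4%, against 8.86%) and the YY1 motif in 12 (16.7%, against 2.75%). At least 1 of the 3 was present in 35 member windows (48.6%), against 17.3% of all windows. YY1 matches were found in 7 of 34 complex I windows and 5 of 20 complex V windows, and in none of the 13 windows of complex IV or the 5 of complex III. A match describes these letters only and does not show that a factor binds. Members without a searched window included Atp5a1, Cox4i1, Cox4i2, Cox6a2, Cox6c, Cox8c, Ndufa2, Ndufa4l2, Ndufb9, Ndufs1, Uqcrb, Uqcrc2 and Uqcrq.

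Library totals lay between 17894937 and 18870516 counts. Counts were scaled with the TMM method, which corrects the totals for genes that take an unequal share of a library. Its factors were 0.80 in M1 and 0.88 in RM1 and between 1.05 and 1.13 in the other 4 libraries, so the scaling raised values in the M1 and RM1 libraries relative to the others. Markers of T cells, B cells and erythroid cells were at 4 counts or fewer in every library. Of 10 macrophage markers all 10 were measured, with a summed level of 22160 to 37370 scaled CPM, the scaled count relative to library size. Lyz2 made up most of this sum, with 469530 counts in M0 against 67308 of Cd14, the next highest. Mrc1 had only 5 to 50 counts. The markers moved in both directions in M1, with Fcgr1 going from 978 counts in M0 to 5200 and Csf1r from 13259 to 4855. The fibroblast markers Col1a2 and Col3a1 were at 0, whereas Dcn went from 113 counts in M0 to 627 in M1 and 726 in RM1, and the neutrophil marker S100a8 from 4580 in M0 to 32464 in M1 and 51228 in RM1 with Mpo at 0 to 3. Over the whole lists, 2 of 5 fibroblast markers and 2 of 4 neutrophil markers were measured. The summed level of the fibroblast list was 42.7 and 43.8 scaled CPM in M1 and RM1 against 5.92 to 9.33 in the other libraries, and that of the neutrophil list 2196 and 3074 against 140.5 to 340.4. In M1, Col1a1 had 1 count, Pdgfra 3, S100a9 3 and Mpo 1, so the 2 sums reflect Dcn and S100a8 almost alone and not the lists as a whole. Whether other cell types had a part in the results on M1 was not tested.

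Per kilobase of annotated transcript, the most abundant members were Cox4i1, with a mean of 807 scaled CPM per kilobase over the 6 libraries (range 635 to 1091), and Atp5b, the catalytic subunit β of ATP synthase, with 733 (565 to 1022). Their ranges overlapped, so the order of these 2 genes is not separated by the spread over libraries. Cox8a followed with 434 (303 to 717) and Atp5a1, the subunit α, with 331 (281 to 437). In complex III the hinge protein Uqcrh was highest at 268 and in complex I Ndufb8 at 222. Ndufa4l2, a paralogue of Ndufa4 known as a hypoxia-induced gene, was lowest of the measured members at 0.52. The members' share of all counts was 0.975%, 1.03% and 0.937% for M0, M1 and M2 and 0.943%, 0.910% and 0.852% for RM0, RM1 and RM2. The exact binomial 95% interval of the M0 share ran from 0.971% to 0.980% and covers counting error only.

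Relative to other genes, respiratory chain transcripts stood higher in the M1 library than in M0. The median log2 difference of the 75 members was 0.35, against -0.03 for all 12079 genes, and 69 members lay above the median of all genes, where 50% of genes lie by construction. The gap of 0.38 between these medians is the same under any scaling by construction, because a scaling factor shifts all genes alike. With the trend on GC content and length over all genes removed, the member median was 0.07, with -0.06 for all genes, and that of complex I -0.05. The direction as an amount of RNA depends on the scaling, because with library totals the median of all genes between M1 and M0 is -0.46 and that of the members -0.09. By complex, the medians with TMM scaling were 0.31 for complex I, 0.38 for complex III, 0.57 for complex IV and 0.44 for complex V. In pooled RNA of this kind, fewer cells with a transcript and less of it in each cell cannot be told apart. M1 held the highest TMM-scaled level of the 6 libraries for 67 of the 75 members (89.3%, against 30.7% of all genes), and RM2 the lowest for 48 (64%, against 18.6%). With library totals these counts were 22 (29.3%, against 14.6%) and 30 (40%, against 11.4%).

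**Figure D1:**
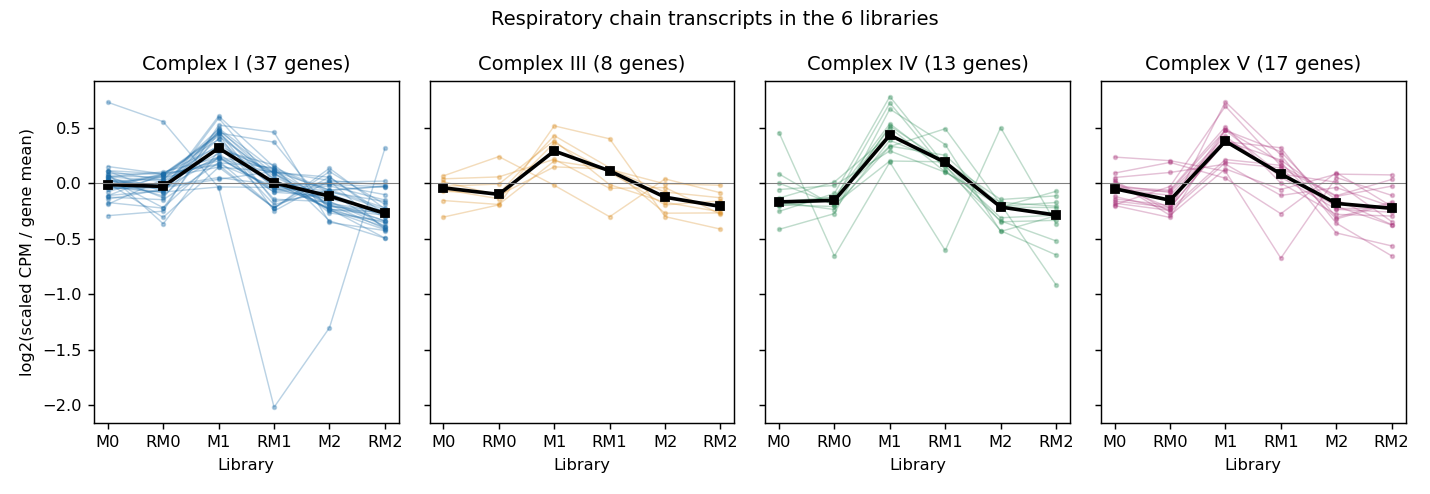
Level of each of the 75 measured members in the 6 libraries, as the log2 of TMM-scaled CPM over the gene's mean, with 1 thin line a gene, 1 panel a complex and the median of the complex as the thick black line. In all 4 panels the median peaks at M1, 67 of 75 genes are highest there, and the step from M0 to M1 turns to a median of -0.09 when libraries are scaled by their totals alone.

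The additive model tests polarization and irradiation over the 6 libraries with edgeR's quasi-likelihood test, with the 2 radiation conditions standing in for replicates of a state and 2 residual degrees of freedom. For M1 against M0 it passed 26 of 75 members as higher (34.7%) and 1 as lower (1.33%), with Benjamini-Hochberg adjusted p-values below 0.05, beside 23.3% of all 11574 tested genes called higher and 24.3% called lower. At an unadjusted p under 0.05, 34 members were higher and 2 lower, against 26.7% and 28.0% of all genes. The share called higher differed between complexes, with 5 of 37 in complex I, 4 of 8 in complex III, 9 of 13 in complex IV and 8 of 17 in complex V. That of complex I (13.5%) lay below the 23.3% of all genes. Scaling by library totals left 5 members higher, all among the 26, and 9 lower, beside 9.43% and 41% of all genes, so which members pass as lower depends on the scaling. The 5 genes that passed as higher under every setting tried were Cox7a2l, Ndufs4, Uqcrh, Atp5e and Atp5f1. Without the M2 and RM2 libraries 16 of the 75 members passed as higher, all among the 26, beside 18% of all genes. The lead over all genes was thus smaller in that fit.

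**Figure D2:**
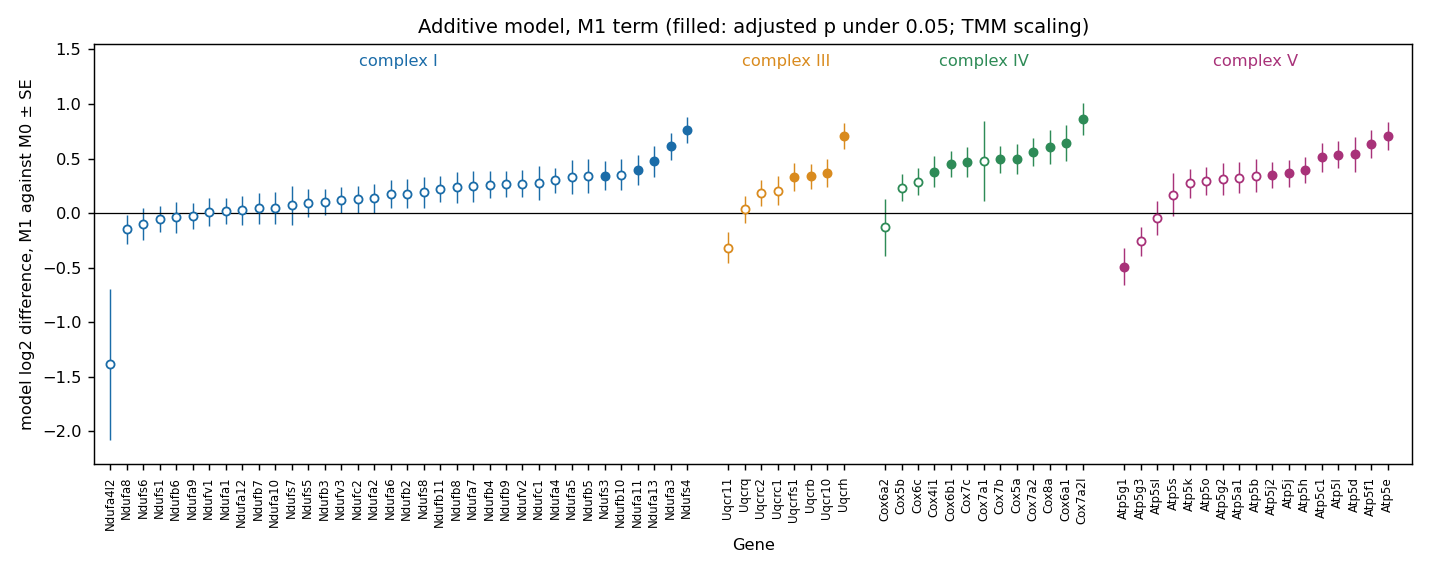
Model log2 difference of M1 against M0 for 74 of the 75 members, ordered within complexes I, III, IV and V, with bars of ± 1 SE and filled points for an adjusted p under 0.05 (TMM scaling). Filled points above 0 number 5, 4, 9 and 8 by complex and Atp5g1 is the only filled point below 0. With library totals all points shift down and 5 members pass as higher and 9 as lower.

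In complex I the gene that stood out in M1 was Ndufs4, an accessory subunit of the electron input arm whose loss is known to cause complex I deficiency (chr13:114287795-114388094). Ndufs4 had 1176, 1544, 1153, 1195, 1665 and 1072 counts from M0 to RM2. The M1 and RM1 libraries both lay above the other 4 in raw counts. Its model difference was 0.76 ± 0.12 (SE, log2, adjusted p = 0.000487), and 0.42 with library totals (adjusted p = 0.0218). The accessory subunits Ndufa3 (0.61 ± 0.13, adjusted p = 0.00256), Ndufa13 (0.48 ± 0.14, adjusted p = 0.0179) and Ndufa11 (0.40 ± 0.14, adjusted p = 0.0323) also passed as higher with TMM scaling. They had 0.27, 0.13 and 0.05 with library totals and did not pass. Ndufa13 and Ndufs3 share 24.0% and 19.9% of the 100-base windows of their transcripts with other genes, as do Cox7c of complex IV with 19.7% and Atp5h of complex V with 16.2%, so part of their reads may be split between copies.

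The core subunits of the matrix arm together carry the flavin and the iron-sulfur clusters that take electrons from NADH to ubiquinone. Of these subunits Ndufs3 passed the test (0.34 ± 0.13, adjusted p = 0.0488). It did not pass with the DESeq2 test, with other count filters, without M2 and RM2 or without an irradiation term. With library totals it had -0.003 (adjusted p = 0.985). Ndufv1, which binds the flavin, had 2113, 1779, 1884, 2156, 1645 and 1710 counts in M0, M1, M2, RM0, RM1 and RM2 and a difference of 0.01. Ndufs1, the largest core subunit, had 1777, 1200, 1697, 1540, 1349 and 1670 counts and a difference of -0.05. Its raw count was lowest in the M1 and RM1 libraries, and with library totals it passed as lower by -0.40 (adjusted p = 0.0358). Ndufv2 had a difference of 0.27, Ndufs8 0.19 and Ndufs7 0.07, none of which passed. Over complex I the model differences ran from -1.38 for Ndufa4l2 to 0.76, with a median of 0.18.

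In complex III the 4 members that passed as higher in M1 with TMM scaling were Uqcrh, Uqcr10, Uqcrb and the Rieske iron-sulfur protein Uqcrfs1. Uqcrh, the hinge protein at the cytochrome c1 side (chr4:116066965-116075070), had 2357, 3107, 2417, 2513, 3231 and 2187 counts from M0 to RM2. As for Ndufs4, M1 and RM1 lay above the other 4. Its model difference was 0.71 ± 0.12 (adjusted p = 0.000901). Uqcr10 differed by 0.37 ± 0.13 (adjusted p = 0.0345), Uqcrb by 0.34 ± 0.12 (adjusted p = 0.0354) and Uqcrfs1 by 0.33 ± 0.12 (adjusted p = 0.0466). Scaled by library totals, Uqcr10, Uqcrb and Uqcrfs1 had 0.02, -0.01 and -0.02 and did not pass, while Uqcrh passed with 0.36 (adjusted p = 0.028). The core proteins Uqcrc1 and Uqcrc2, which form the matrix side of the complex, differed by 0.21 and 0.19 and did not pass. Uqcr11 went the other way with 639, 449, 641, 712, 416 and 575 counts in the 6 libraries from M0 to RM2 and a difference of -0.32 ± 0.14 (adjusted p = 0.0885).

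Complex IV had the largest share of members that passed as higher in M1 with TMM scaling. The 9 were Cox4i1, Cox5a, Cox6a1, Cox6b1, Cox7a2, Cox7a2l, Cox7b, Cox7c and Cox8a, all of them nuclear subunits that surround the catalytic core except for Cox7a2l, the supercomplex factor. Cox7a2l (chr17:83501917-83514333) had 5190, 8207, 5239, 5659, 7414 and 5657 counts from M0 to RM2. Its M1 and RM1 counts stood clear of the 4 others, which spanned 5190 to 5659. The M1 to M0 log2 ratio was 1.08 (95% interval 1.03 to 1.14, counting error only) and the model difference 0.86 ± 0.15 (adjusted p = 0.000873), the highest of all members. Cox6a1 had 2587, 3953, 2345, 2860, 2901 and 1972 counts from M0 to RM2, a log2 ratio of 1.03 in M1 (0.96 to 1.11) and a model difference of 0.65 ± 0.17 (adjusted p = 0.00870). In contrast to Cox7a2l its RM1 count lay close to that of RM0. Cox8a had 4113, 5830, 3828, 4216, 4329 and 3304 counts, with a model difference of 0.60 ± 0.16 (adjusted p = 0.00890). Cox5b (0.23) and Cox6c (0.29) did not pass. Of the 9, Cox7a2l alone also passed as higher with library totals (0.51, adjusted p = 0.00686).

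Several complex IV subunits exist as pairs of isoforms, a common form and one known from heart and skeletal muscle or from other tissues. RAW264.7 cells used the common form almost alone. Cox4i1 had 12020 counts in M1 against 1 of Cox4i2, a share of 99.99% (exact binomial 95% interval 99.95 to 100). Cox7a2 held 98.05% to 98.98% of the counts of Cox7a1 and Cox7a2 across the 6 libraries. Cox6a2, the heart and muscle form of Cox6a1, was measured at a low level, with 92, 57, 97, 42, 37 and 52 counts from M0 to RM2. Its share of the counts of both forms, which no scaling can change, was 3.43% in M0 (interval 2.78 to 4.195), 1.42% in M1, 3.97% in M2, 1.45% in RM0 (1.05 to 1.95), 1.26% in RM1 and 2.57% in RM2 (1.93 to 3.36). The intervals of M0 and RM0 did not overlap, those of M2 and RM2 did, and in M1 and RM1 the share was low in both. The exons of Cox6a2 overlap those of Itgad on the other strand, and whether counting used strand is not given in the sources used here.

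In complex V the 8 members that passed as higher with TMM scaling belong to the stalks and the membrane part. Of these, the central stalk subunits are Atp5c1 (γ), Atp5d (δ) and Atp5e (ε), the peripheral stalk subunits Atp5f1, Atp5h and Atp5j, and the membrane subunits Atp5j2 and Atp5l. The α and β subunits of the catalytic head did not pass. Neither did Atp5o of the peripheral stalk (0.29, adjusted p = 0.0795) nor Atp5k of the membrane part (0.28, adjusted p = 0.109). Atp5j (0.36) and Atp5j2 (0.35) passed with values close to these, so the threshold draws this line more than the values do. Atp5e and Atp5f1 alone also passed as higher with library totals (0.36 and 0.29). Atp5e (chr2:174461075-174464101) had 2171, 3047, 1959, 2049, 2466 and 1562 counts from M0 to RM2, with a model difference of 0.71 ± 0.13 (adjusted p = 0.00139). Atp5f1 had 7121, 8497, 7147, 6528, 8375 and 7001 counts and a difference of 0.64 ± 0.13 (adjusted p = 0.00227), although the span listed for it in the tables covers 0.121% of the annotated gene, so where its reads were counted is uncertain, as it is for Atp5j, Atp5d and Cox7a2, whose listed spans cover under 50%. Both genes had their highest raw counts in M1 and RM1. Atp5c1 differed by 0.51 ± 0.13 (adjusted p = 0.00984). The catalytic subunits Atp5a1 and Atp5b differed by 0.33 ± 0.14 (adjusted p = 0.0794) and 0.35 ± 0.15 (adjusted p = 0.0868), close to the median of 0.345 over the complex, and both passed with DESeq2.

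The 3 genes Atp5g1, Atp5g2 and Atp5g3 encode the same mature subunit c, which forms the rotating ring of the enzyme, and they moved apart in M1. Atp5g1 (chr11:96072793-96075694) had 1562, 1066, 1406, 1509, 698 and 1230 counts from M0 to RM2. Its raw count was lowest in RM1 and next lowest in M1, whereas its scaled CPM was 72.1 in M1, above the 69.3 of M2 and the 61.996 of RM2. The log2 ratio was -0.13 (-0.24 to -0.01) in M1 against M0 and -0.88 (-1.01 to -0.75) in RM1 against RM0, so most of the difference lay in RM1. Its model difference was -0.49 ± 0.17 (adjusted p = 0.0343). With GC content as an offset the adjusted p was 0.0648, and without an irradiation term it did not pass. Atp5g2 had 1424, 1550, 1229, 1382, 1229 and 1190 counts and a difference of 0.31 ± 0.14 (adjusted p = 0.0971), and Atp5g3 had 2610, 1884, 2678, 2757, 1702 and 2120 counts and a difference of -0.26 ± 0.14 (adjusted p = 0.136). Scaling aside, Atp5g1 made up 27.9% of the counts of the 3 genes in M0 (interval 26.7 to 29.1), 23.7% in M1 (22.5 to 24.96), 26.5% in M2, 26.7% in RM0, 19.2% in RM1 (17.96 to 20.55) and 27.1% in RM2. Atp5g2 went from 25.45% in M0 to 34.4% in M1 and from 24.5% in RM0 to 33.9% in RM1. M1 and RM1 thus both held a lower share of Atp5g1 and a higher share of Atp5g2 than the other 4, with intervals that did not overlap them. The Atp5g1 transcripts in the annotation differ in length, so its level per kilobase was not ranked.

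**Figure D3:**
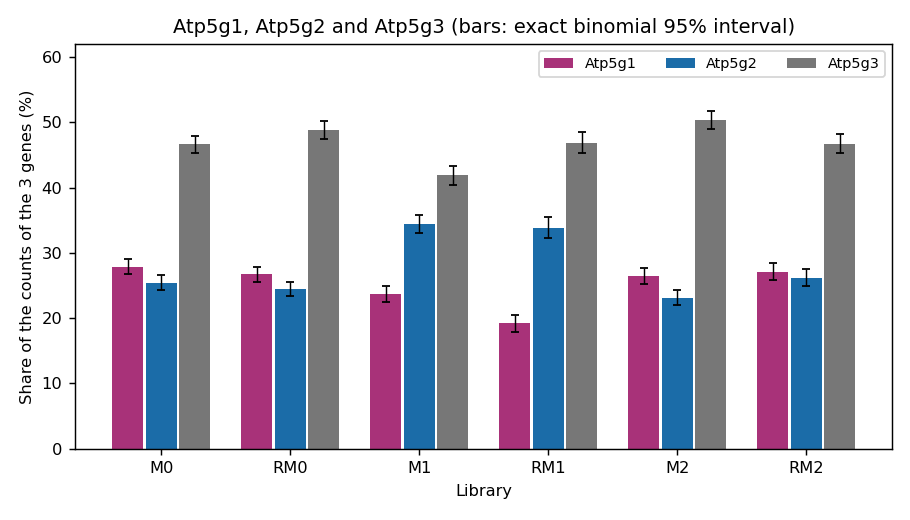
Share of each of Atp5g1, Atp5g2 and Atp5g3 in the counts of the 3 genes in each library, in percent, with exact binomial 95% intervals that cover counting error only. The share of Atp5g1 is 23.7% in M1 and 19.2% in RM1 and at least 26.5% in the other 4 libraries, and the share of Atp5g2 is highest in the same 2 libraries.

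Among irradiated cells the members stood above other genes in the M1 state by less. Between RM1 and RM0 the median of the 75 members was 0.17, against -0.01 for all genes, with 0.00 for complex I, 0.23 for complex III, 0.28 for complex IV and 0.23 for complex V. All 13 complex IV genes were higher in RM1 than in RM0 with TMM scaling, and 19 of 37 complex I genes were, against 49.4% of all genes. With library totals the median of the members was -0.08 and that of all genes -0.25. Relative to all genes, 53 members lay above the median in RM1 against RM0 (51 with library totals). Ndufs4 kept a log2 ratio of 0.71 (0.60 to 0.82), Cox7a2l of 0.62 (0.57 to 0.67) and Uqcrh of 0.60 (0.52 to 0.67), while Cox6a1 had 0.25 (0.18 to 0.33) and Cox8a 0.27 (0.21 to 0.33). Whether the M1 difference changed with irradiation cannot be tested with 1 library a condition.

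**Figure D4:**
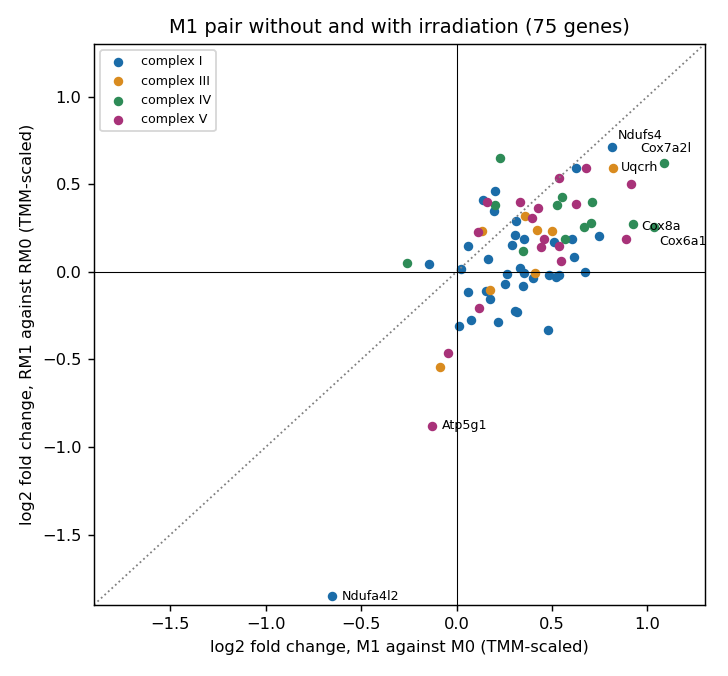
Log2 fold change of each of the 75 members between M1 and M0 (horizontal axis) and between RM1 and RM0 (vertical axis), TMM-scaled and coloured by complex, with a dotted line of equal change. Most points lie below the line, complex IV genes lie at or above 0 on the vertical axis, and Atp5g1 and Ndufa4l2 lie lowest. Library totals shift the medians of both axes below 0.

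For irradiation itself the question was whether the chain changed after 10 Gy in each state. The medians of the 75 members were -0.03 in RM0 against M0, -0.29 in RM1 against M1 and -0.09 in RM2 against M2, beside 0.00, -0.01 and 0.00 for all genes. RM1 against M1 had the lowest median of the 3 pairs. The same M1 library also enters M1 against M0. This fall and the rise described for that pair are therefore not independent of each other. In RM1 against M1, 73 of 75 members were below 0, against 6177 of 12079 genes. For 57 members the counting interval lay wholly below 0, with none wholly above, and this was not counted over all genes. With library totals the median of that pair was -0.15 while all genes had 0.13, a gap of -0.28. With the trend on GC content and length removed the member median was -0.11, with -0.02 for all genes. By complex it was -0.35 for complex I, -0.26 for III, -0.32 for IV and -0.29 for V. In all 3 pairs 33 members were lower (44% of 75), against 19.3% of all genes, and 39 with library totals, against 20.2%.

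**Figure D5:**
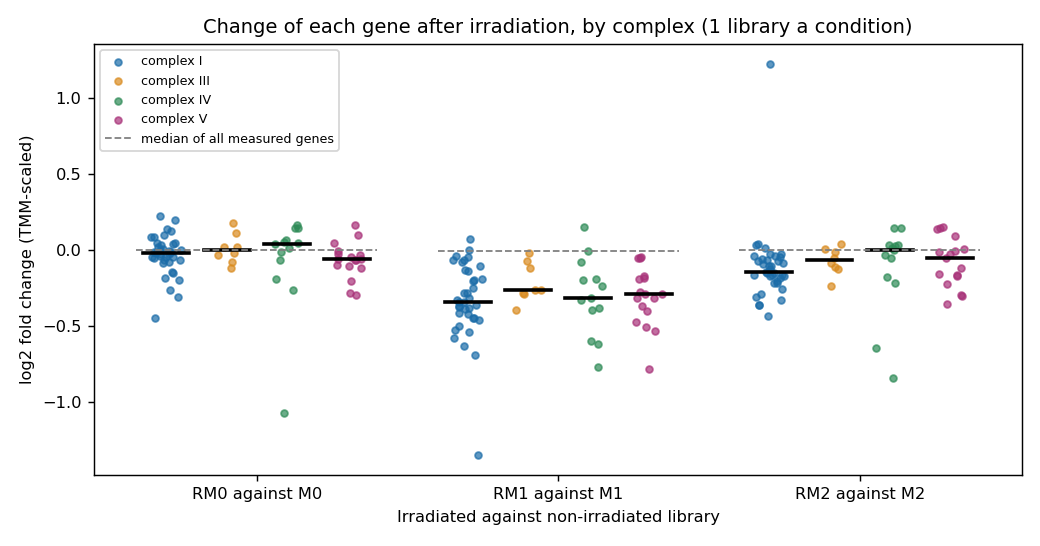
Log2 fold change of each member of the irradiated over the non-irradiated library in each state (TMM-scaled), with 1 point a gene, colours for complexes, black bars for the median of the complex and a dashed line for the median of all measured genes. The RM1 to M1 medians lie between -0.26 and -0.35 in all 4 complexes, below the dashed line, which moves to 0.13 with library totals, and the 2 other pairs lie nearer to 0.

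In the additive model none of the 75 members passed for irradiation in either direction, beside 0.346% of all genes called higher and 0.13% called lower. DESeq2 also called 0. At an unadjusted p under 0.05, 10 members were lower and 0 higher (edgeR), against 6.87% and 7.88% of all genes. The median model difference of the members was -0.14, and -0.01 for all genes. Cox6a2 had the lowest value, -0.93 ± 0.21 (adjusted p = 0.0904). It was lower in each irradiated library than in its partner, with log2 ratios of -1.08 (-1.68 to -0.57) in M0, -0.77 (-1.43 to -0.17) in M1 and -0.84 (-1.38 to -0.37) in M2. Without M1 and RM1 it passed the test, 1 of 75 members beside 2.27% of all genes called lower. Without M0 and RM0, Atp5g1, Ndufb10 and Ndufs7 passed as lower, 3 of 75 beside 2.24% of all genes. Next to Cox6a2 the lowest were Ndufs8 (-0.34 ± 0.11, adjusted p = 0.221) and Ndufs7 (-0.33 ± 0.14, adjusted p = 0.317), both core subunits of the ubiquinone-reducing part of complex I.

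At the level of 2-fold calls between single libraries, few members were involved. In RM0 against M0, Cox6a2 was called lower and no member higher, beside 0.821% and 0.719% of all genes. In RM1 against M1 no member was called, beside 3.08% higher and 2.25% lower over all genes. In RM2 against M2, Ndufa4l2 was called higher with 12 counts against 4, beside 1.03% higher and 0.932% lower. The interval of that log2 ratio ran from -0.11 to 3.71, so counting error alone spans 0. In M1 against M0, Cox7a2l and Cox6a1 were called higher and none lower, beside 9.37% and 13.3% of all genes. In RM1 against RM0, Ndufa4l2 was called lower with 2 counts against 14 (log2 ratio -1.85, interval -5.75 to -0.45), beside 6.16% higher and 7.87% lower. Ndufa4l2 reached the limit of 10 counts only in M0, RM0 and RM2. Its calls set these libraries against others, so the selection favours them and they are no separate result. In RM2 against RM0 none was called, beside 1.66% and 0.953%.

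After IL-4 most members lay slightly lower. The median of the 75 members in M2 against M0 was -0.12, against 0.00 for all genes, with 62 below 0, against 6174 of 12079 genes. In RM2 against RM0 it was -0.22, against 0.00, with 59 below 0, against 6093 of 12079 genes. The 4 complexes had medians between -0.09 and -0.14 in the first pair and between -0.06 and -0.26 in the second. Atp5b had 26741 counts in M0, 24681 in M2, 26215 in RM0 and 21477 in RM2, and Cox4i1 had 10879, 9591, 11885 and 9469. Both were lower in M2 than in M0 and lower in RM2 than in RM0. At 2-fold only Ndufa4l2 was called, lower in M2 with 4 counts against 16, beside 0.442% of all genes called lower and 0.995% called higher. The interval of its log2 ratio ran from -4.07 to -0.40. Ndufa4l2 reached the limit of 10 counts in M0 and not in M2, so the selection itself favours this call. The additive model passed none of the 75 for M2 against M0, beside 0.156% higher and 0.0346% lower over all genes, and DESeq2 passed 0. At an unadjusted p under 0.05, 8 members were lower and 0 higher, against 4.42% and 5.71% of all genes. When M1 and RM1 were left out, 12 members passed as lower, beside 5.44% of all genes, among them Cox4i1, Cox6a1, Atp5d, Atp5e and Ndufv1. M1 and M2 are compared with the same M0 and RM0 libraries, so the differences of the 2 states are not independent of each other.

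The pathway around the chain was read from lists of genes with the same model. Of the 4 complex II genes, which feed electrons from succinate, Sdhb (0.40 ± 0.13, adjusted p = 0.0241) and Sdhd (0.40 ± 0.13, adjusted p = 0.0256) rose in M1, while Sdha had -0.04 and Sdhc 0.25. With library totals Sdhb and Sdhd had 0.05 each and did not pass. Among 17 genes of electron carriers and coenzyme Q synthesis 2 rose and 3 fell, below the 23.3% and 24.3% of all genes called higher and lower. The list also holds Cyc1 (0.20) and Ndufab1 (0.08), subunits of complexes III and I outside the name rule, and neither passed. Cycs, the cytochrome c of somatic cells, rose by 0.47 ± 0.12 (adjusted p = 0.00845; 0.12 and adjusted p = 0.374 with library totals), and Etfb, part of the electron transfer flavoprotein of fatty acid oxidation, had -0.58 ± 0.12 (adjusted p = 0.00287). Of 46 assembly factors 5 were higher and 5 lower, again below the shares over all genes. With library totals 1 was higher, Cox17, and 16 were lower, beside 9.43% and 41% of all genes. Higher were the copper chaperone Cox17 (0.80 ± 0.12, adjusted p = 0.000372), Surf1, Cox14, Cox18 and Ndufaf5, and lower were Lrpprc, which stabilizes mitochondrial mRNAs (-1.62 ± 0.14, adjusted p = 1.17e-05), Sco2, Coa7, Bcs1l and Lyrm7.

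Of 14 measured regulators of mitochondrial biogenesis and DNA maintenance, 5 fell in M1 and 1 rose, beside the 24.3% and 23.3% over all genes. Tfam, which packages and transcribes mitochondrial DNA, had 637, 220, 642, 474, 295 and 611 counts from M0 to RM2 and a difference of -0.78 ± 0.17 (adjusted p = 0.00305). The mitochondrial DNA polymerase gene Polg (-0.84 ± 0.14), the helicase gene listed as Peo1 (-1.48 ± 0.26), Tfb2m (-1.003 ± 0.177) and the coactivator gene Pprc1 (-0.69 ± 0.12) were the others. Their raw counts were lowest in M1 and RM1, and all 5 also passed as lower with library totals (-1.82 to -1.03). With that scaling 41% of all genes passed as lower and 49.9% of all genes were lowest in M1. It lowers M1 relative to M0 for every gene compared with TMM, so passing again is no separate check. Gabpb1, a subunit of the factor that binds the ETS motif, rose by 0.39 ± 0.13 (adjusted p = 0.0315), but had 0.05 with library totals (adjusted p = 0.811). Nrf1 had 0.23 (adjusted p = 0.199), and Ppargc1a was at 0 counts in all libraries. Of 77 mitochondrial ribosomal protein genes 21 rose and 9 fell, and with library totals 4 were higher and 30 lower. Of 23 import genes 4 rose and 8 fell, and with library totals 0 were higher and 14 lower. Over all genes 23.3% were higher and 24.3% lower, and with library totals 9.43% and 41%. A list of 8 genes around adenine nucleotide and phosphate transport had 0 higher and 2 lower, the uncoupling protein gene Ucp2 and the ATP synthase inhibitor gene Atpif1, neither of which is such a carrier. The carriers Slc25a3, Slc25a4 and Slc25a5 had -0.12, 0.02 and 0.16 and did not pass with TMM scaling, while with library totals Slc25a3 and Slc25a4 passed as lower. None of these lists had a gene that passed for irradiation or M2.

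Base composition and length moved with several of these differences. The members have short transcripts, with a median of 732 bases against 2821 for all genes, and a median GC content of 51.9% against 50.4%. Over the members, Spearman's rho of the log2 difference with GC content was -0.52 in RM1 against M1, -0.59 in RM2 against RM0 and -0.45 in M2 against M0, and over all genes it was -0.40, -0.64 and -0.37. With this trend removed, the member median in RM2 against RM0 was -0.10, with -0.02 for all genes. In M1 against M0 the medians by complex were then -0.05 for I, 0.13 for III, 0.31 for IV and 0.15 for V. Complex I then lay close to the value of all genes, while complex IV stayed above it. With GC content alone as an offset in the model, 35 members passed as higher in M1 and none as lower, beside 27.2% and 25.9% of all genes.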

How the data were processed

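RNA was sequenced from RAW264.7 cells in 6 conditions with 1 library each. The authors deposited raw HTSeq counts per gene, without normalization, as 1 table a library with 24062 genes, and no row lacked a gene name. The submitters' processing notes name Trimmomatic 0.36, HISAT2 2.2.1, HTSeq 0.11.3 and the build mm10. The gene annotation and the strand setting of the counting are not given in the sources used here, and 26 members overlap exons of a gene on the other strand. For 7 members the start and end given in the tables cover under 50% of the annotated gene.

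Samples were grouped by their labels. Totals of 17894937 to 18870516 counts set the precision. A count of 0 allows up to 3 counts. Counts were scaled with TMM factors from edgeR 4.0.16 (R 4.3.3), and a prior count of 2 entered each log2 fold change. Calls between 2 libraries required a 2-fold difference and 10 or more counts in either library. They carry no p-value. Intervals at 95% are exact Clopper-Pearson intervals and cover counting error only. The additive model of polarization and irradiation used edgeR's quasi-likelihood test. It was fitted to the 11574 genes that reached 10 counts in 3 or more libraries, and p-values were adjusted over all of them (Benjamini-Hochberg, threshold 0.05). It has 2 residual degrees of freedom, assumes that irradiation acts alike in the 3 states, and treats M1 and RM1, for example, as replicates of 1 state. The fits were tested on simulated data.

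Genes named in the text were, within each complex and with a mean of at least 50 counts, the 2 highest and 2 lowest in M1 and the extremes for irradiation, all members called at 2-fold, the complex I core, anchor subunits and tissue isoforms. Other members named as passing a test, and Ndufb8, Ndufb10, Cox6c, Atp5o and Atp5k, were chosen after their values were seen. Members, lists and rules were chosen with earlier results of these data known. Transcript length, GC content and shared windows of 100 bases came from GENCODE M21 (99.6% of genes had a length). Newer gene names were matched through RefSeq synonyms. Alternatives were DESeq2 1.42.0, scaling by totals, another prior count (0.25), lower or higher count limits, a 1.5-fold threshold, each state left out, models with 1 term less, and removal of the GC and length trend. GC offsets in the model were an alternative chosen later, after seeing the data. Motif searches and figures used Python 3.11.15, pandas 2.3.3 and matplotlib 3.10.9. A member of complex I enters the counts and medians but is not reported by name here. Exosome and protein measurements were not analysed here.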

Additional observations from a re-analysis of the deposited data

Results flagged for a closer look

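For 10 named members the irradiated library was higher than its partner in 1 state and lower in another, with counting intervals clear of 0 on both sides. With 1 library a condition, the difference between states was not tested. In complex III, Uqcrh had a log2 ratio of 0.11 in RM0 against M0, -0.12 in RM1 against M1 and -0.11 in RM2 against M2, and Uqcr11 had 0.17 in RM0 against M0 and -0.28 in RM1 against M1. In complex IV, Cox4i1 had 0.15 and -0.24 in those 2 pairs. Cox6a1 had 0.16, -0.62 and -0.22 in RM0, RM1 and RM2, and Cox7a2l had 0.14, -0.32 and 0.14. Cox7b had -0.20 in RM1 against M1 and 0.14 in RM2 against M2. In complex V, Atp5d had 0.16, -0.54 and -0.12 in RM0, RM1 and RM2, Atp5j had -0.12 in RM0 against M0 and 0.15 in RM2 against M2, and Atp5c1 had -0.29 in RM1 against M1 and 0.14 in RM2 against M2, and Atp5g3 had 0.10 in RM0 against M0, -0.32 in RM1 against M1 and -0.30 in RM2 against M2. RM1 against M1 had a negative value clear of 0 in 9 of the 10 genes, all except Atp5j. The 10 were picked for values clear of 0 on both sides, and the share of all genes with such a pattern is not given. Over all 75 members that pair had 57 intervals wholly below 0 and 0 wholly above, so the 9 add nothing beyond that. With library totals Uqcrh in RM1 against M1 turned to 0.03. Cox7b then had -0.05 in RM1 against M1 and Atp5g3 0.05 in RM0 against M0. Uqcr11 had 0.12 in RM0 against M0 and -0.14 in RM1 against M1. Other values moved away from 0, such as Atp5j in RM0 against M0 at -0.17. The pattern of opposite signs therefore depends on the scaling for some of the 10. Scaling by library totals shifts the median of all genes to 0.13 in that pair, to -0.05 in RM0 against M0 and to -0.05 in RM2 against M2. The intervals cover counting error only, and the spread between wells or cultures is not known.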

How the results depend on the processing

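No paired analysis was possible because each condition has 1 library and the labels give no replicate numbers. Median log2 differences of the members moved beyond the members' median counting interval with library totals to -0.15 in RM1 against M1, -0.0873 in M1 against M0 and -0.0778 in RM1 against RM0, and with the GC and length trend removed to -0.11 in RM1 against M1 and 0.0742 in M1 against M0. The 30 other recomputed medians stayed within it. For 2-fold calls, the 1.5-fold threshold gave 6 members in RM1 against M1, 3 in RM2 against M2, 18 in M1 against M0, 8 in RM1 against RM0 and 1 in RM2 against RM0. A filter of at least 50 counts left 0 in RM2 against M2, M2 against M0 and RM1 against RM0, where Ndufa4l2 was the called member, and no filter gave 1 in RM1 against M1. Library totals gave 1 in M1 against M0 and 2 in RM1 against RM0. These counts are given without the share over all genes. They do not tell whether members were called more or less often than other genes.

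In the additive model, M1 against M0 passed 27 members, 14 with library totals and 17 without M2 and RM2, a fit with fewer libraries. Over all genes the shares higher and lower were 23.3% and 24.3%, 9.43% and 41%, and 18% and 20.1% in these 3 fits. In the remaining settings 16.6% to 27.2% of all genes were higher and 17.5% to 25.9% lower. The other settings gave 20 to 35, and those with DESeq2, its size factors or other filters kept 21 to 26 of the 26 higher members. For irradiation, leaving out 1 state gave 0 to 3 members, and for M2 against M0 leaving out M1 and RM1 gave 12. The cause of these changes was not tested. Over all genes the passing share for irradiation went from 0.346% higher and 0.13% lower to 3.53% and 2.24% without M0 and RM0. Of the fold changes of single named genes under other scalings or prior counts, 930 stayed within their counting interval, 159 moved beyond it and none of the called ones turned sign. Low counts limit Ndufa4l2, Cox7a1 and Cox6a2, and 1 library a condition limits every pairwise value.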
